A study of Homo sapiens with 6 samples.

Results

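The genes described here are 54 genes of autophagy and mitophagy, chosen by name, with a probe taken as measured when its detection p-value was under 0.05 on 3 or more of the 6 arrays. Of the 54, 51 had such a probe under their symbol in the platform annotation, out of 11646 genes tested in all. MAP1LC3A, FUNDC2 and PGAM5 had none and were not analysed here. RNA came from SN12C, a human renal carcinoma cell line that the series treats as NF2-deficient, and was hybridised to 6 Illumina bead arrays. The 3 control arrays hold cells with the pTripz vector, and the 3 knockdown arrays hold cells with pTripz shRNAs against YAP and against TAZ. GFP-luc is named for both groups, and both received doxycycline, which induces expression of the shRNAs, for 3 days or more, with serum-free medium for the last 24 hours. Cells were otherwise grown with 10% FBS. The sources used here do not say whether each line was a clone or a pool. The series calls the 3 arrays of a group technical repeats, so each p-value below measures spread between arrays and not between cultures.

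Autophagy encloses cytoplasm in a double membrane, the autophagosome, and delivers it to the lysosome. The ULK kinase complex and the class III phosphatidylinositol 3-kinase complex start the membrane, ATG2 and ATG9 proteins supply it with lipid, and a ubiquitin-like conjugation system attaches proteins of the LC3 and GABARAP families to it. Cargo receptors tie selected material to these proteins, and SNARE and tethering proteins then join the autophagosome to the lysosome. Mitophagy is the same route applied to mitochondria, marked either by the kinase PINK1 with ubiquitin or by receptor proteins of the outer mitochondrial membrane. Withdrawal of serum, which both groups underwent, is a known stimulus of autophagy. The arrays measured RNA and not autophagic flux.

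YAP1, a targeted gene, had log2 intensities of 8.47, 8.26 and 8.47 in control cells and 7.33, 6.77 and 6.56 in knockdown cells (limma, adjusted p = 0.000355), and WWTR1, which encodes TAZ, had no kept annotated probe, which leaves TAZ unchecked. An array detected 19674 to 20971 of its 47315 probes. The median raw intensity of an array was 87.6 to 102.4, highest on control array 2. Across genes, the arrays numbered 1 stood somewhat apart, with correlations to the other arrays of their group of 0.983 to 0.986, against 0.994 between the arrays numbered 2 and 3. Of the markers chosen for the cell line, the renal transcription factor PAX8 (log2 5.60 to 6.26), KRT8, KRT18, MET, VIM and CDH2 were detected on all 6 arrays, and EPCAM on 1 control and 2 knockdown arrays near background. Of these markers KRT8 (log2 change -1.07, adjusted p = 0.000161) and VIM (-0.45, 0.0118) fell and CDH2 (1.29, 3.43e-05) rose in the same fit, and their part in the results below was not tested. PAX2, CDH16, CA9 and CDH1 had no kept annotated probe. The same held for PTPRC, CD3E, PECAM1, CDH5 and VWF, markers of blood and endothelium. The liver marker ALB was detected on 2 control and 3 knockdown arrays. It lay at 4.47 to 4.89, where the dimmest detected probe of an array lies between 4.50 and 4.56.

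Of the 51 measured members, 12 were higher and 7 lower in knockdown cells at an adjusted p under 0.05 (limma, Benjamini-Hochberg over all genes), and 32 did not pass. Over all genes 39.8% were called, 20.3% higher and 19.5% lower, so the 37.3% of members called lay close to the background. The median log2 change of the members was 0.14, against 0.03 over all genes, and their median change in size was 0.28, against 0.30. Only EVA1A and PINK1 were called with a log2 change of at least 1 in size, a step that 8.38% of all genes reached. EVA1A was kept through its control arrays alone, so the filter fixed its direction. On normalized values the groups did not overlap for 29 members, 18 with the knockdown arrays above and 11 with them below. The background over all genes is 50.9%, 26.2% and 24.8%. With median scaling over all probes in place of quantile normalization, 0 members were higher and 2 lower (EVA1A and PINK1), and calls over all genes fell to 10.6%. With that scaling over the kept probes, a setting added after the data were seen, 8 members were higher and 7 lower (29.4%), against 31.8% called over all genes. With the replicate number as a block, 13 were higher and 10 lower (45.1%), against 48.3% over all genes. In bulk RNA, less of a transcript per cell and fewer cells with it cannot be told apart.

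**Figure D1:**
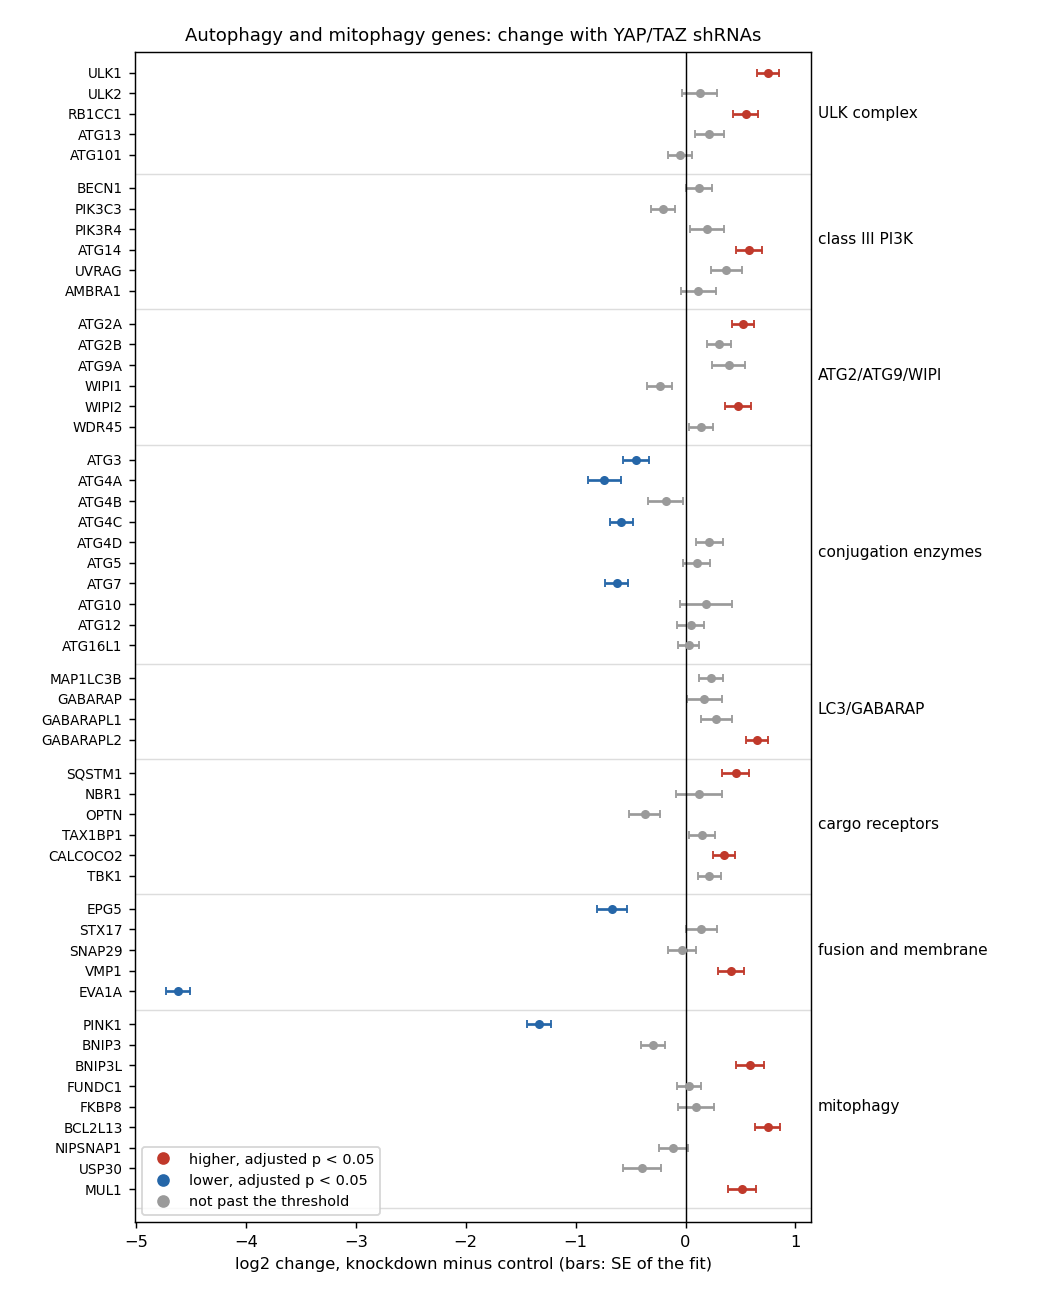
Log2 change (knockdown minus control) of the 51 measured members, grouped by role, with bars for the SE of the limma fit. Red and blue points are the 12 higher and 7 lower genes at an adjusted p under 0.05. EVA1A, at -4.62, was not detected in knockdown cells, so its fitted value is not a bound.

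**Figure D2:**
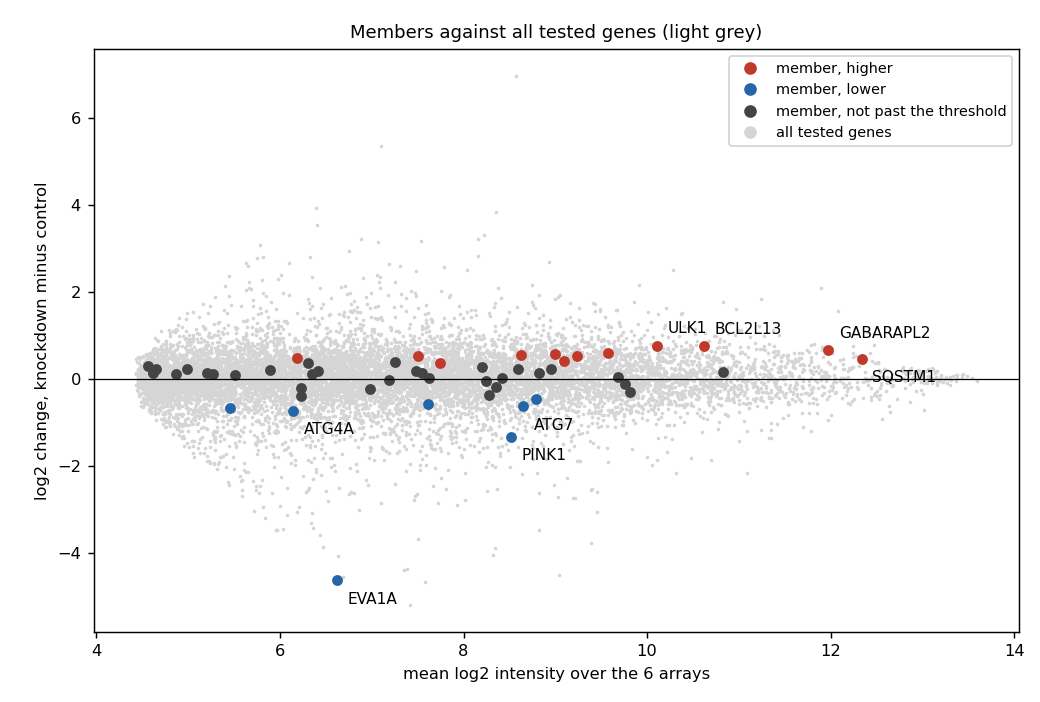
Log2 change against the mean log2 intensity over 6 arrays for all 11646 tested genes (light grey) and the 51 members (coloured by call). Most members lie within the cloud of all genes, and EVA1A and PINK1 lie furthest below 0 among them.

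Of 17 genes of the initiation machinery, 5 rose (ULK1, RB1CC1, ATG14, ATG2A and WIPI2), 0 fell and 12 did not pass. The share called was 29.4%, against 39.8% over all genes, and the median log2 change was 0.22. In the ULK complex, ULK1, its kinase, had log2 intensities of 9.66, 9.76 and 9.77 in control cells and 10.50, 10.49 and 10.45 in knockdown cells. After normalization, every knockdown array lay above every control array, and the groups were tight around their means. Raw intensities were 664.8, 1364.7 and 857.3 in control cells and 1786.3, 1355.8 and 1210.6 in knockdown cells. These raw values overlapped at control array 2. The rise in normalized intensity was 1.68-fold, or 0.75 ± 0.0982 (SE) on the log2 scale, with an adjusted p of 0.000445. With median scaling over all probes the adjusted p was 0.144. The other kept ULK1 probe rose by 0.64. RB1CC1, also known as FIP200, the scaffold of the complex, read 8.33, 8.38 and 8.35 in control cells and 9.09, 8.83 and 8.77 in knockdown cells. It rose 1.46-fold (adjusted p = 0.00584), with knockdown array 1 the highest. The kinase ULK2 (0.13), which is close to ULK1 in sequence, and the adaptors ATG13 (0.22) and ATG101 (-0.05) did not pass on the log2 scale. ATG13 was near background, at 4.46, 4.59 and 4.56 in control cells, where it was detected on 1 array, and 4.60, 5.02 and 4.66 in knockdown cells, where it was detected on 3. The knockdown arrays of ATG13 lay above, but by a small margin.

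The promoters of members with a sequence in the RefSeq table (build GRCh38.p14) are shown for called genes that hold either of 2 motifs on either strand. PINK1 and EPG5 have no window there and were not scanned. In capitals are GGAATG or its reverse complement CATTCC, the core of the site of TEAD factors, through which YAP and TAZ act on DNA, and CACGTG, the core of the site of TFEB and TFE3, activators of lysosomal and autophagy genes. ACGTG and its reverse complement CACGT, the core of the site of hypoxia-inducible factors and contained in CACGTG, are also in capitals. Each window runs from 250 bases before to 50 bases after the gene start, 5′ to 3′ on the strand of the gene. A match is a description of the letters and not of binding. ULK1 held 1 TEAD core, 90 bases before its start.
ULK1 promoter, chr12:131894372-131894671, plus strand: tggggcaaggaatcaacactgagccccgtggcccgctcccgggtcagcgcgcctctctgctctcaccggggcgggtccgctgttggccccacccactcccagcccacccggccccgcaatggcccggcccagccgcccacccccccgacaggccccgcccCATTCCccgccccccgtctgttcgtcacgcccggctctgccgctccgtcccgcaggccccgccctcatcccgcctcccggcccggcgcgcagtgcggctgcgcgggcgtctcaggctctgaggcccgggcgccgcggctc

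Among the 6 genes of the class III phosphatidylinositol 3-kinase complex and its regulators, ATG14, the subunit that directs the complex to autophagosome formation, rose. Its log2 intensities were 8.81, 8.63 and 8.67 in control cells and 9.46, 9.27 and 9.13 in knockdown cells, without overlap. The rise was 1.49-fold (0.58 ± 0.121 on the log2 scale, adjusted p = 0.0053). UVRAG, the subunit that takes the place of ATG14 in the endosomal form of the complex, read 6.02, 6.19 and 6.16 in control cells and 6.76, 6.27 and 6.45 in knockdown cells. These groups did not overlap either, and its change of 0.37 missed the threshold (adjusted p = 0.0662). PIK3C3, the lipid kinase itself, read 6.39, 6.19 and 6.44 in control cells and 6.06, 6.18 and 6.15 in knockdown cells, a change of -0.21 that did not pass although the knockdown arrays lay below. BECN1 (0.12), the core subunit PIK3R4 (0.19) and the regulator AMBRA1 (0.12) overlapped between the groups. ATG14 held CACGTG 21 bases before its start.
ATG14 promoter, chr14:55411781-55412080, minus strand: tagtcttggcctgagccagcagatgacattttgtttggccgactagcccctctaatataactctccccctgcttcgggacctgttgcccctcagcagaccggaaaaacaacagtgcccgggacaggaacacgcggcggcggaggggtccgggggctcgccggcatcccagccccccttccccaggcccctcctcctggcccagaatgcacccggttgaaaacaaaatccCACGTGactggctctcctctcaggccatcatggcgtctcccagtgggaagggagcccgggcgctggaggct

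Of the 6 genes for lipid supply and its docking, ATG2A and WIPI2 passed (33.3%, against 39.8% over all genes). ATG2A, a lipid transfer protein, read 7.25, 7.30 and 7.18 in control cells and 7.82, 7.69 and 7.77 in knockdown cells, a rise of 1.43-fold (adjusted p = 0.0036). WIPI2, which binds phosphatidylinositol 3-phosphate and recruits ATG16L1, read 5.77, 5.97 and 6.09 in control cells and 6.37, 6.46 and 6.44 in knockdown cells, a rise of 1.39-fold (adjusted p = 0.0104). Both were separated without overlap. ATG9A, the transmembrane lipid scramblase, gave 7.27, 6.93 and 6.97 against 7.72, 7.32 and 7.32, so that array 1 was the highest of either group. Its change of 0.39 missed the threshold (adjusted p = 0.0651) but passed with the replicate number as a block (0.0104), and its other kept probe rose by 0.54 (adjusted p = 0.00753). ATG2B, the relative of ATG2A, lay near background at 4.54, 4.37 and 4.33 against 4.61, 4.81 and 4.74, with 1 control array and 3 knockdown arrays detected and a change of 0.30 (adjusted p = 0.0583). WIPI1, a relative of WIPI2, went the other way in value, at 6.94, 7.19 and 7.18 against 6.88, 6.81 and 6.92, a change of -0.24 that did not pass. WDR45 (0.14) overlapped between the groups.

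Of 10 enzymes of the conjugation machinery and their partners, 4 fell (ATG7, ATG3, ATG4A and ATG4C), 0 rose and 6 did not pass. Here 40% were called, against 39.8% over all genes, and the median log2 change was -0.08. ATG7, the E1-like enzyme that activates both ubiquitin-like systems, read 8.90, 8.93 and 9.05 in control cells and 8.23, 8.44 and 8.33 in knockdown cells. All knockdown values lay below all control values, a fall of 1.55-fold (-0.63 ± 0.108 on the log2 scale, adjusted p = 0.00195). ATG3, the E2-like enzyme that passes LC3 to its lipid, read 8.90, 9.03 and 9.12 in control cells and 8.43, 8.54 and 8.72 in knockdown cells, a fall of 1.37-fold (adjusted p = 0.015). The other kept ATG3 probe changed by 0.05 and did not pass, so the probes of ATG3 disagree. With their mean the adjusted p was 0.137, and without control array 3 it was 0.0694.

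ATG4 proteases trim LC3 and GABARAP proteins before conjugation and release them afterwards, and ATG4A and ATG4C fell among the 4 members of this family. ATG4A had log2 intensities of 6.31, 6.52 and 6.69 in control cells and 5.55, 5.98 and 5.78 in knockdown cells. It fell 1.67-fold (adjusted p = 0.00417), and its other kept probe fell by 0.68 on the log2 scale. ATG4C had 7.84, 8.02 and 7.85 in control cells and 7.35, 7.31 and 7.31 in knockdown cells, a fall of 1.5-fold (adjusted p = 0.00226), with a narrow spread among the knockdown arrays. ATG4B (-0.18), known as the most active protease of the family, and ATG4D (0.22) overlapped between the groups and did not pass. The remaining enzymes and partners, ATG5 (0.10), ATG10 (0.19), ATG12 (0.05) and ATG16L1 (0.03), form the complex that directs LC3 to the membrane or help to build it. All 4 overlapped between the groups, and their adjusted p-values were between 0.546 and 0.845. The ATG7 window held 2 TEAD cores, 227 and 217 bases before the start. The ATG3 window held CACGTG 18 bases before and 5 bases after the start.
ATG7 promoter, chr3:11272147-11272446, plus strand: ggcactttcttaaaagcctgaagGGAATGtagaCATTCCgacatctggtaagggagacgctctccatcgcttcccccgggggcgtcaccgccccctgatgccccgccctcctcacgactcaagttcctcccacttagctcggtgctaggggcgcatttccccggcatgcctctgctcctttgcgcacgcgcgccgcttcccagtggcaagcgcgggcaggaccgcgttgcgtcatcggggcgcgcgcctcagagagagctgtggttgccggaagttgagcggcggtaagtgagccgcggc
ATG3 promoter, chr3:112561913-112562212, minus strand: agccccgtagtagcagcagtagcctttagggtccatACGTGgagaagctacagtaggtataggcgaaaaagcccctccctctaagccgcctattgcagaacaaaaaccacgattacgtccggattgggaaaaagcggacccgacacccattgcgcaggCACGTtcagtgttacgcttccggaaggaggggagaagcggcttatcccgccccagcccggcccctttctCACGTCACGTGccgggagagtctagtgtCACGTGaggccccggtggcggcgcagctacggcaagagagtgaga

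Of 4 measured LC3 and GABARAP genes, which encode the proteins that these enzymes attach to the membrane, GABARAPL2 rose and 3 did not pass. Their median log2 change was 0.26, and 25% were called, against 39.8% over all genes. GABARAPL2, also known as GATE-16, read 11.61, 11.64 and 11.69 in control cells and 12.24, 12.30 and 12.36 in knockdown cells, without overlap. The rise was 1.57-fold (0.65 ± 0.099 on the log2 scale, adjusted p = 0.00101), while its other kept probe changed by 0.45 and missed the threshold (adjusted p = 0.212). MAP1LC3B, which encodes the LC3 protein most used as an autophagosome marker, read 8.35, 8.59 and 8.49 against 8.72, 8.63 and 8.78. The knockdown arrays lay above by a small margin, and the change of 0.23 did not pass (adjusted p = 0.133). The near-identical gene MAP1LC3B2 had no kept annotated probe, and the signal of the MAP1LC3B probe cannot be told apart from it here. GABARAP (0.17) and GABARAPL1 (0.28) overlapped between the groups. The GABARAPL2 window held 1 TEAD core 216 bases before its start and ACGTG 105 bases before.
GABARAPL2 promoter, chr16:75566129-75566428, plus strand: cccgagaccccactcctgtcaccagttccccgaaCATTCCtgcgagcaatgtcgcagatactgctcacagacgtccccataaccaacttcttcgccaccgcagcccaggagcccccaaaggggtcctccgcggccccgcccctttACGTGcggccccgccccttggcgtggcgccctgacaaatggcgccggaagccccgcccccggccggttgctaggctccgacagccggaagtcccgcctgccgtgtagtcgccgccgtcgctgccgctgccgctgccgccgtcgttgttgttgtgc

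**Figure D3:**
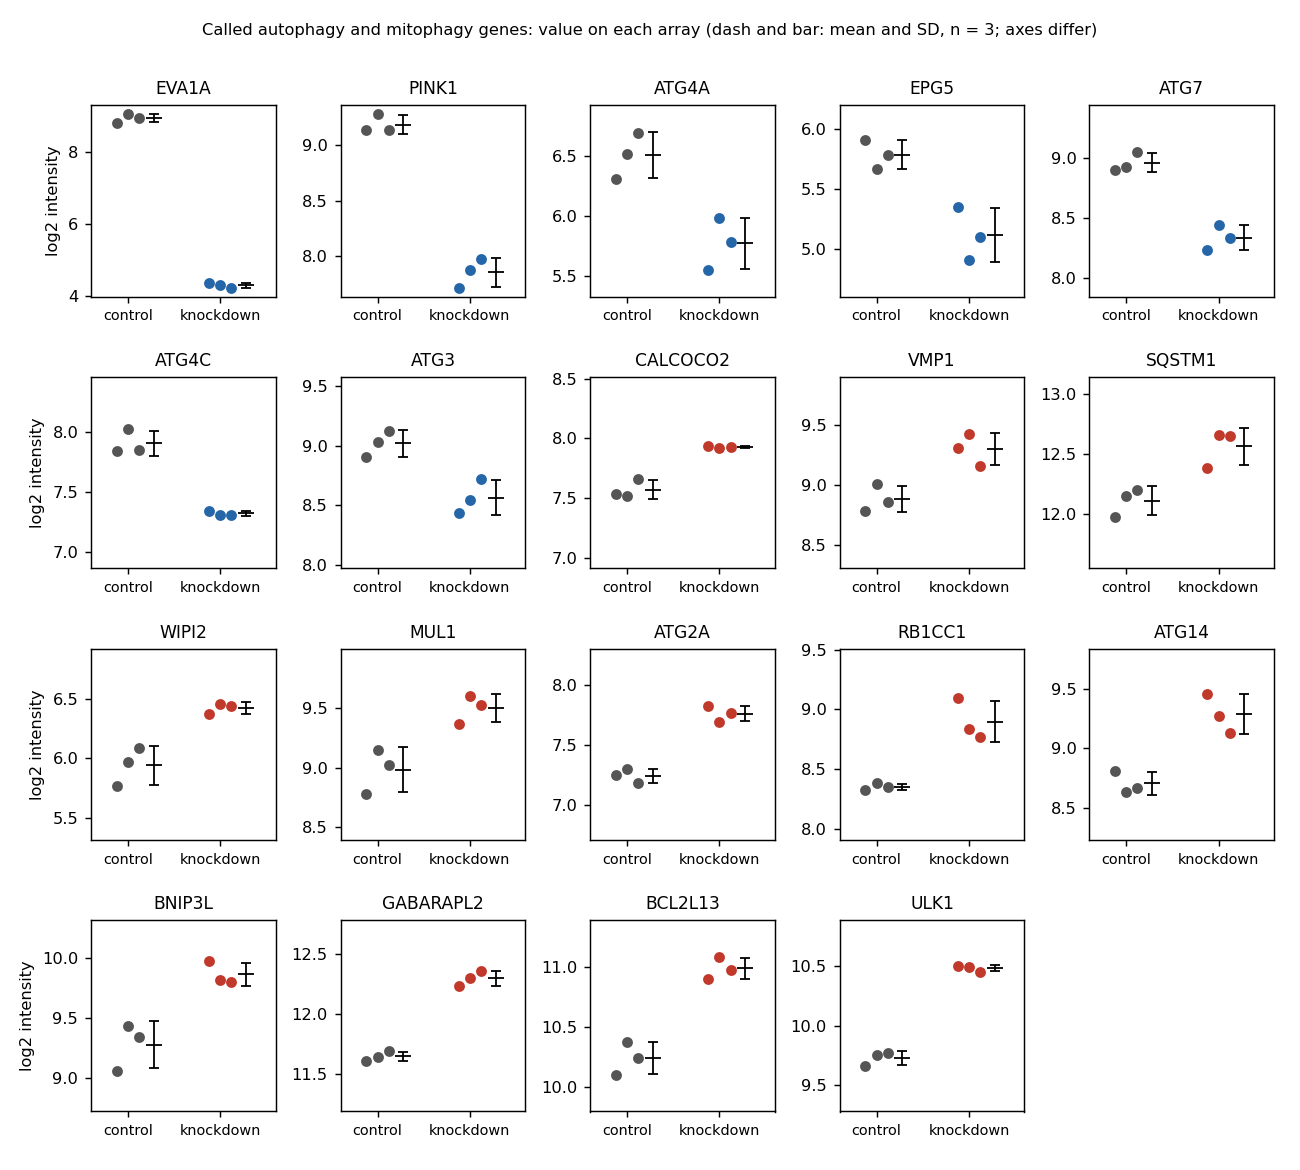
Normalized log2 intensity of the 19 called members on each of the 6 arrays (points), with mean and SD of 3 arrays per group beside them. Axes differ between panels and span at least 1.6 log2 units. The groups do not overlap in any of the 19 panels, which were chosen by their adjusted p, so this is no further support. Over all genes the groups did not overlap for 50.9%.

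Of 6 genes for cargo receptors, which bind LC3 and GABARAP proteins, and for their kinase, SQSTM1 and CALCOCO2 rose. None fell and 4 did not pass, so 33.3% were called, against 39.8% over all genes. SQSTM1, which encodes p62, the receptor of ubiquitinated proteins, read 11.97, 12.15 and 12.20 in control cells and 12.39, 12.66 and 12.65 in knockdown cells. Array 1 was the lowest of either group, and the groups did not overlap. The rise of 1.37-fold (adjusted p = 0.0168) missed the threshold without control array 1 (0.0521), knockdown array 2 (0.0664) or knockdown array 3 (0.0669). CALCOCO2, which encodes NDP52, a receptor for bacteria and mitochondria, read 7.53, 7.52 and 7.66 in control cells and 7.93, 7.92 and 7.93 in knockdown cells. Its rise was 1.28-fold (adjusted p = 0.0209), and it missed the threshold without control array 1 (0.0518) or 2 (0.0618) and without knockdown array 2 (0.0574) or 3 (0.0618). With median scaling over the kept probes the adjusted p was 0.133 for SQSTM1 and 0.0793 for CALCOCO2.

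OPTN, which encodes optineurin, a ubiquitin-binding receptor, read 8.40, 8.48 and 8.51 in control cells and 7.79, 8.32 and 8.17 in knockdown cells, with knockdown array 1 the lowest. The change of -0.37 missed the threshold (adjusted p = 0.0698) and passed with the replicate number as a block (0.0284). TBK1, the kinase that phosphorylates OPTN, CALCOCO2 and SQSTM1, read 8.80, 8.85 and 8.89 against 9.10, 9.12 and 8.97, a change of 0.22 without overlap that did not pass (adjusted p = 0.125). TAX1BP1 (0.15) and NBR1 (0.12) overlapped between the groups.

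Of 5 genes for fusion and for membrane proteins of the route, EVA1A and EPG5 fell and VMP1 rose (60%, against 39.8% over all genes). EVA1A, also known as TMEM166, encodes a membrane protein of the endoplasmic reticulum and lysosome that promotes autophagy. Its raw intensities were 388.7, 849.4 and 500.6 in control cells and 97.2, 89 and 85.5 in knockdown cells, where 0 of the 3 arrays detected it. After normalization it read 8.80, 9.04 and 8.94 against 4.37, 4.31 and 4.23, so the knockdown arrays lay at background and the groups were far apart. It was kept through its control arrays alone, which fixes its direction but not its size. On background-corrected values EVA1A was at least 21.0-fold lower, and its other 2 kept probes were at least 7.35-fold and at least 5.60-fold lower. These bounds carry no test. The limma adjusted p of 5.38e-08 belongs to the fitted change of -4.62, and it adds no support because the filter fixed the direction. The size depended on the background correction. Without it the fitted fall was 6.05-fold, and with the mean of its probes the change was -3.50 on the log2 scale.

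EVA1A has 3 promoter windows in the RefSeq table. The TEAD core occurred in 1 of them, at 106 bases before and 38 bases after that start.
EVA1A promoter, chr2:75561280-75561579, minus strand: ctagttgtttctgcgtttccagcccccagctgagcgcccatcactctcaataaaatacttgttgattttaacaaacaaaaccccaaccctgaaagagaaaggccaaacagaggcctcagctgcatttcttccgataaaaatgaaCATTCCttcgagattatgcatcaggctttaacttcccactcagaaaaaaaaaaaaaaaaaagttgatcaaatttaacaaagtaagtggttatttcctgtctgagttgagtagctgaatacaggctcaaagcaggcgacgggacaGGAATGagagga

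EPG5, a tether that promotes fusion with late endosomes and lysosomes, had log2 intensities of 5.91, 5.67 and 5.79 in control cells and 5.35, 4.90 and 5.10 in knockdown cells. It fell 1.59-fold (adjusted p = 0.00486) without overlap. Its other kept probe changed by -0.40 and did not pass (0.588), and the mean of the probes did not pass either (0.175). VMP1, a lipid scramblase of the endoplasmic reticulum that acts with ATG2 proteins, read 8.79, 9.01 and 8.86 against 9.32, 9.43 and 9.16. Its groups did not overlap. The rise of 1.34-fold (adjusted p = 0.0205) missed the threshold without control array 1 (0.0612) or 3 (0.0695), without knockdown array 2 (0.0774), without both arrays numbered 1 (0.0561, added once values were known) and with median scaling over the kept probes (0.0947). The SNARE genes STX17 (0.14) and SNAP29 (-0.03), whose products form the fusion complex on the autophagosome, overlapped between the groups, and STX17 was detected on 1 control array and 2 knockdown arrays.

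Of 9 measured mitophagy genes, PINK1 fell, BNIP3L, BCL2L13 and MUL1 rose, and 5 did not pass (44.4% called, against 39.8% over all genes). PINK1, the kinase that accumulates on damaged mitochondria and phosphorylates ubiquitin, read 9.13, 9.28 and 9.14 in control cells and 7.71, 7.87 and 7.97 in knockdown cells. The lowest control array lay more than 1 log2 unit above the highest knockdown array. PINK1 was 2.52-fold lower (-1.33 ± 0.113 on the log2 scale, adjusted p = 3.83e-05), and it was called in all 17 alternative settings, with changes of -1.39 to -1.10. MUL1, a ubiquitin ligase of the outer mitochondrial membrane, read 8.78, 9.14 and 9.03 in control cells and 9.37, 9.60 and 9.53 in knockdown cells, a rise of 1.43-fold (adjusted p = 0.0122), which missed the threshold with median scaling over the kept probes (0.0657). USP30, the mitochondrial deubiquitinase known to restrain mitophagy, read 6.17, 6.72 and 6.38 against 6.04, 6.28 and 5.77. These groups overlapped, and the change of -0.39 missed the threshold (adjusted p = 0.107) but passed with the replicate number as a block (0.0249).

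Among receptors of the outer mitochondrial membrane, BNIP3L and BCL2L13 passed. BNIP3L, also known as NIX, the receptor known from mitochondrial clearance in red cell precursors, read 9.06, 9.43 and 9.34 in control cells and 9.98, 9.82 and 9.80 in knockdown cells. It rose 1.5-fold (adjusted p = 0.00631), and its other kept probe rose by 0.69. BCL2L13, a receptor of the BCL2 family, read 10.10, 10.37 and 10.24 against 10.90, 11.08 and 10.98, so the groups stood well apart. The rise was 1.68-fold (0.75 ± 0.114 on the log2 scale, adjusted p = 0.00102). BNIP3, the close relative of BNIP3L and a known target of hypoxia-inducible factors, read 9.90, 9.94 and 10.05 in control cells and 9.53, 9.77 and 9.71 in knockdown cells. The knockdown arrays of BNIP3 lay below, with a change of -0.29 that missed the threshold (adjusted p = 0.0635) and passed with the replicate number as a block (0.0397). FUNDC1 (0.03), FKBP8 (0.10) and NIPSNAP1 (-0.11), a matrix protein that marks damaged mitochondria, overlapped between the groups.

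Of the 51 members 47 were detected on all 6 arrays, as were 9850 of 11646 genes, and the median member lay at the 61.6 percentile of mean intensity over all genes. The members on 3 to 5 arrays were ATG13, ATG2B, STX17 and EVA1A, and probes of members that failed the detection rule carry no name in the annotation used here, so no values just outside it can be given. More than 1 probe was kept for 16 members. Of their 17 further probes 3 gave the opposite sign (ATG3, ATG12 and ATG16L1), and 3 gave the same sign with another call (ATG9A, EPG5 and GABARAPL2).

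Promoter windows were found for 43 of the 51 measured members, 57 windows in all. They covered 10 of the 12 higher and 5 of the 7 lower genes, and among those without a window were PINK1 and EPG5. The TEAD core was present in 19.3% of them, against 14% of all 35116 windows of that length in the table. CACGTG was present in 8.77% against 7.26%, and ACGTG in 28.1% against 21.4%. Of the windows of called genes, 2 of 15 for higher genes (GABARAPL2 and ULK1) and 2 of 7 for lower genes (ATG7 and EVA1A) held the TEAD core. Among members not called it was in 7 of 35 windows (20%). CACGTG stood in 1 window of a higher gene (ATG14), 1 of a lower gene (ATG3) and 3 of the 35 windows of members not called.

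A further 81 genes of the pathway that are no members were taken from a list, and 72 of them were measured. More than 1 probe was kept for 15 of these genes, and only the brightest probe of each is given here. Of these 20 rose, 6 fell and 46 did not pass, a share called of 36.1% against 39.8% over all genes, with a median log2 change of 0.17. With the replicate number as a block 25 rose and 10 fell (48.6%, against 48.3% over all genes), and with median scaling over all probes 1 rose and 2 fell.

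Among 10 further genes for cargo receptors and for chaperone proteins grouped with them, 6 rose, 1 fell and 3 did not pass (70% called, against 39.8% over all genes). RETREG1, also known as FAM134B, a receptor for the endoplasmic reticulum, read 7.22, 7.67 and 7.47 in control cells and 5.47, 5.69 and 5.73 in knockdown cells. RETREG1 fell 3.54-fold (adjusted p = 2.37e-05), the opposite direction to the other called genes of this group. Its fall was 2.00-fold to 3.91-fold across the alternative settings, and it was called in all 17. BAG3, the co-chaperone that delivers misfolded clients to SQSTM1, rose 1.67-fold (adjusted p = 0.00156), and SEC62 and CCPG1, also receptors for the endoplasmic reticulum, rose 1.59-fold (0.00653) and 1.57-fold (0.00749). Of 13 measured genes for tethering, SNARE fusion and the lysosomal membrane, 6 rose and 0 fell (46.2%, against the same 39.8%). VPS41 (1.52-fold, adjusted p = 0.00148) and VPS11 (1.5-fold, 0.00356) encode subunits of the HOPS tether. LAMP2, a lysosomal membrane protein, rose 1.5-fold (0.00309), and TMEM55B, now named PIP4P1, which positions lysosomes, 1.45-fold (0.00975).

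Of 15 further mitophagy genes 3 rose and 0 fell (20%, against 39.8% over all genes), and with the block VCP also fell. TBC1D15 and TBC1D17, regulators of RAB7 that bind the mitochondrial protein FIS1, rose 1.70-fold (adjusted p = 0.00093) and 1.66-fold (0.00279), and RHOT2, a GTPase of the outer mitochondrial membrane that serves mitochondrial transport, rose 1.70-fold (0.00359). Among 11 genes grouped here as negative regulators, a label not tested for each, 2 fell and 0 rose (18.2%, against 39.8% over all genes). With the replicate number as a block, 4 rose (BCL2, RPTOR, TBC1D14 and TBC1D5) beside the 2 that fell (54.5%, against 48.3% over all genes). BCL2L1, which encodes BCL-XL, a binding partner of BECN1, fell 1.76-fold (0.000447), and RUBCN, which encodes rubicon, an inhibitor of the lipid kinase complex, fell 1.61-fold (0.00391). Of 18 further core genes 4 rose and 3 fell (38.9%, against 39.8% over all genes), and 5 fell with the block. TP53INP1, a p53 target that binds LC3, rose 3.10-fold (2.37e-05), from 6.71, 6.73 and 6.65 to 8.55, 8.15 and 8.27. The rise of TP53INP1 was 2.20-fold to 3.30-fold across the alternative settings. DRAM2, a lysosomal membrane protein, rose 1.78-fold (0.00484). ATG16L2 rose 1.47-fold (0.0149) and missed the threshold without control array 3 (0.0609) or knockdown array 3 (0.0577). MAP1LC3C, detected on 3 control arrays and 0 knockdown arrays, was at least 1.18-fold lower on background-corrected values. It was kept through its control arrays alone, which fixes its direction, and it missed the threshold without background correction (0.055) and with median scaling over the kept probes (0.154).

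Of 5 measured transcription factors of the pathway 1 rose and 0 fell (20%, against 39.8% over all genes), and with the block FOXO1 also fell. TFE3 changed by -0.20 and did not pass (adjusted p = 0.199), and TFEB and MITF had no kept annotated probe. FOXO3, which activates autophagy genes, read 9.59, 9.04 and 9.08 in control cells and 10.11, 9.69 and 9.57 in knockdown cells. Its groups overlapped at control array 1, and the rise of 1.47-fold passed narrowly (adjusted p = 0.046). It lost the call in 8 of the 17 alternative settings, among them those without control array 2 (0.145) or 3 (0.141) or without knockdown array 1 (0.111) or 2 (0.0726), and without background correction (0.0512).

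**Figure D4:**
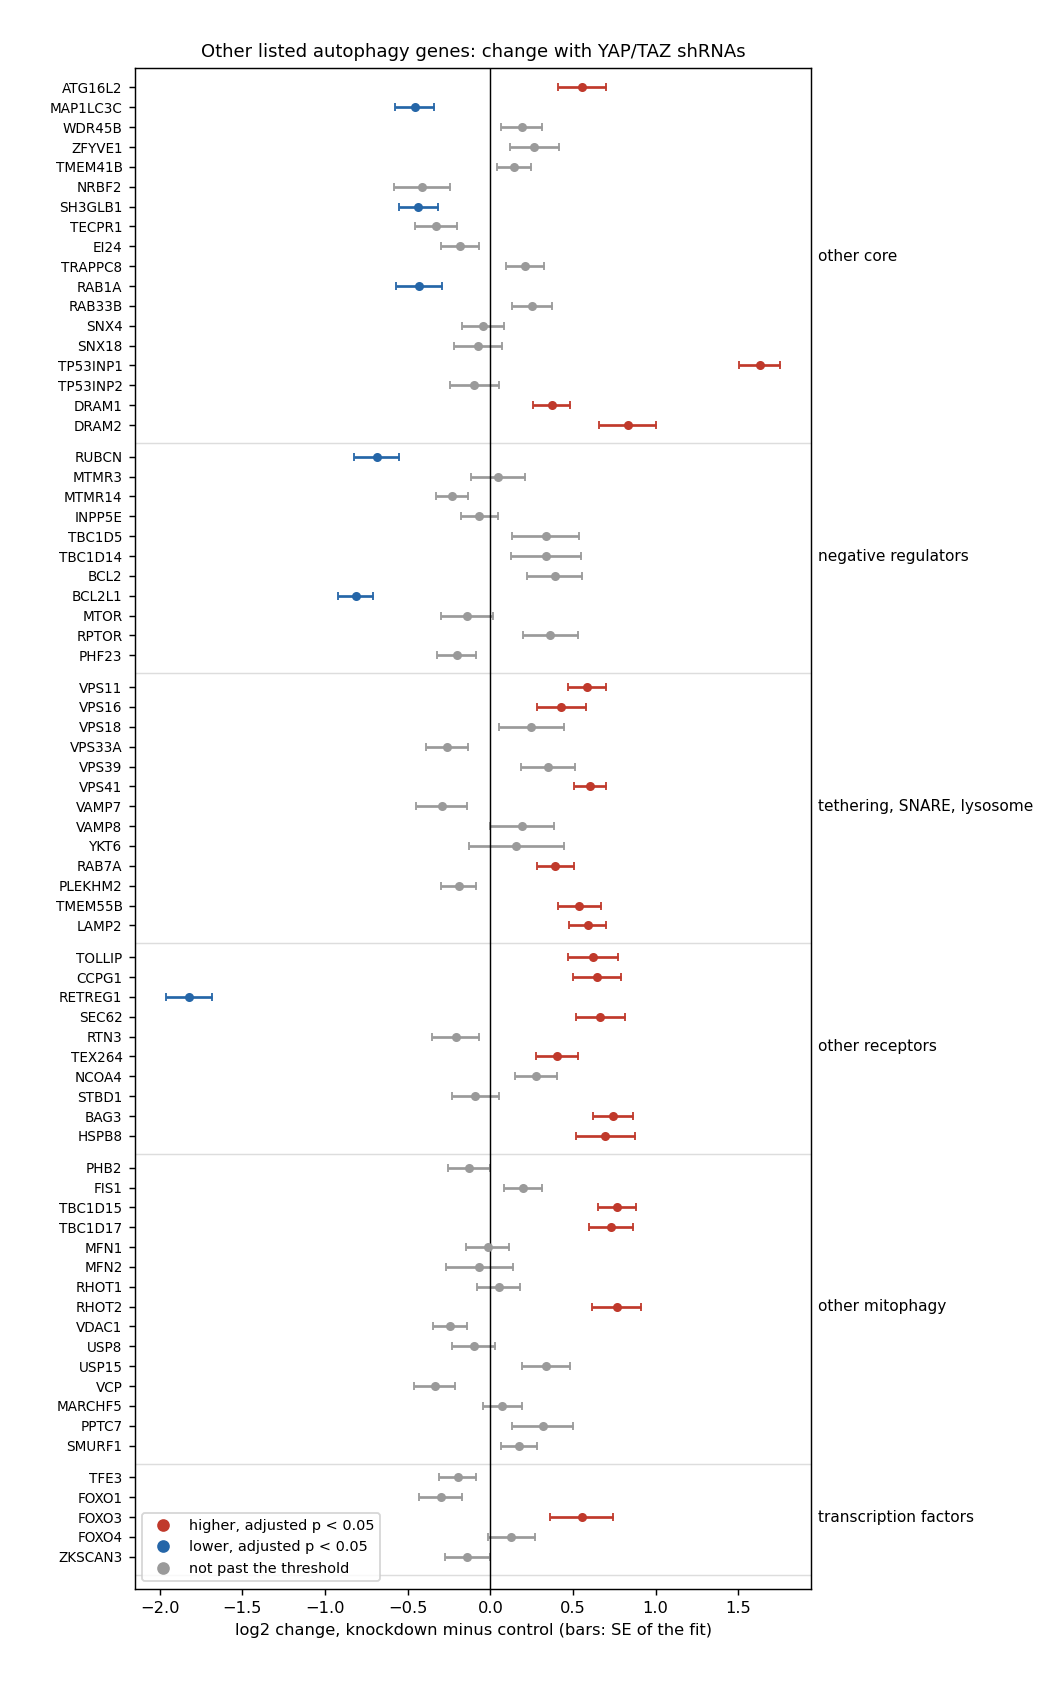
Log2 change (knockdown minus control) of the 72 measured autophagy genes that are no members, grouped by role, with bars for the SE of the fit. Red and blue points are the 20 higher and 6 lower genes at an adjusted p under 0.05. RETREG1 and TP53INP1 lie furthest from 0.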

How the data were processed

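RNA of 3 control and 3 knockdown samples was measured on bead arrays, and columns were assigned to samples by the names and numbers in the titles. The deposited table of probe intensity (linear scale, not normalized, per the file headers) holds, per the file headers, a column of detection p-values beside each array. A deposited log2 table holds values normalized by the authors, for which the submitters' processing notes name limma without a version. The intensity table held 48202 lines, and 887 without a probe identifier were left out. The 20348 probes of the deposited log2 table were those kept here, and its values differed from the ones computed here by at most 0.0238. No genome build is given for the arrays in the sources used here.

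With neqc of limma 3.58.1 in R 4.3.3, background was corrected by normexp from the detection p-values, 16 was added, and arrays were quantile-normalized on the log2 scale. A probe was kept where 3 or more of 6 arrays had it below a detection p-value of 0.05. Names came from the supplied platform annotation, which gave 15493 kept probes 1 symbol, 4 several and 4851 none. Of these, 15484 were matched by Entrez identifier to a current gene table, with 0 symbols changed. Each of 11646 genes was represented by its brightest probe. Further probes of a member were tested in a fit over all kept probes. Groups were compared with lmFit and eBayes, two-sided, with the group as the only term. The fit was tested on simulated data, and a gene that did not pass is not read here as unchanged. For a probe detected on 0 arrays of a group, "at least N-fold" sets the bright group's mean against, per array, the higher of its own value and the lowest detected value. Such a bound holds for background-corrected, normalized values only. No probe's level was set against another's, and the number of arrays limits the precision.

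Array numbers were taken as pairs in the replicate block setting only, and the main counts and p-values come from the fit without them. Deviations from the group means correlated at 0.627, 0.27 and 0.467 between arrays of the same number, all above 0.1. Arrays of different number also correlated, at 0.378 for control 3 with knockdown 2 and 0.222 for control 2 with knockdown 3, so numbers 2 and 3 are not told apart by this check. The pairing comes from the numbers in the titles. Members, lists and tests were chosen with earlier results of these data known. All members and the targeted genes may be named, and of the other pathway genes up to 4 called genes a group with the smallest adjusted p. TFE3, TFEB, MITF, FOXO1, VCP, BCL2, RPTOR, TBC1D14, TBC1D5 and MAP1LC3B2 fall outside that rule and were chosen after values were seen. Promoter sequences are RefSeq's, build GRCh38.p14. Alternatives changed background correction, scaling, source of values, filter, probe choice, variance prior, replicate block and arrays.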

Additional observations from a re-analysis of the deposited data

How the results depend on the processing

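Calls were recomputed in 17 alternative settings. Of the 19 called members, 2 (EVA1A and PINK1) passed in every setting in which they were tested. EVA1A was not tested under detection on all 6 arrays, without any 1 control array, or without both arrays numbered 1. The filter fixed the direction of EVA1A, so its calls add no support. A further 11 lost their call with median scaling over all probes alone, and 6 (ATG3, SQSTM1, CALCOCO2, EPG5, VMP1 and MUL1) in another setting too. Of members not called, 9 passed in at least 1 setting. Median scaling over all probes gave 0 members higher and 2 lower in limma (8 at an unadjusted p under 0.05), 1 further pathway gene higher and 2 lower, and 549 of all genes higher and 687 lower, against 2369 and 2269. The cause was not tested. Median scaling over the kept probes, chosen after seeing the data, gave 3 further pathway genes lower, against 6. With the replicate block 13 members were higher and 10 lower, the 4 gained being ATG9A, OPTN, BNIP3 and USP30, while the share called over all genes rose to 48.3%. Of the other pathway genes 10 were lower. The block ended no call of a member. Leaving out 1 array at a time gave 10 to 13 members higher and 5 to 8 lower. Of the other pathway genes, 14 to 21 were higher and 3 to 8 lower, with the lowest count of 3 without control array 2 and also without control array 3.

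The sign of 10 members turned in at least 1 setting, 0 of them called. Leaving out 1 array at a time gave log2 changes of -0.019 to 0.26 for ULK2, -0.11 to 0.0027 for ATG101, -0.049 to 0.26 for AMBRA1, -0.042 to 0.39 for ATG10 and -0.079 to 0.11 for ATG12. The ranges were -0.00016 to 0.058 for ATG16L1, -0.061 to 0.37 for NBR1, -0.093 to 0.077 for SNAP29, -0.045 to 0.079 for FUNDC1 and -0.025 to 0.23 for FKBP8. Without both arrays numbered 1, chosen after seeing the data, the change was -0.070 for ATG12 and -0.019 for NBR1. Median scaling gave -0.016 for ATG12 over all probes, and -0.049 for ATG12 and -0.0051 for FUNDC1 over the kept probes. The mean of probes gave -0.0021 for ATG12 and -0.0038 for ATG16L1.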
